A study of Schizosaccharomyces pombe with 4 samples.

Results

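The response of mmi1-ts3 fission yeast to a temperature shift was set against that of the wild type, gene by gene. All 4 arrays of the series were used, 2 of each strain. The mutant strain, JV565, has the temperature-sensitive allele mmi1-ts3, and the other strain, JV558, is wild type; the labels give no further allele of either. Each array compared RNA of 1 strain in 2 channels: cells collected 30 min after a move to 36 °C, and cells of that same strain growing at 25 °C. Cultures grew in the rich medium YES, each from a single colony, and polyA RNA was labelled. Each array was centred on its median, and the mean log2 ratio (36 °C over 25 °C) of the wild-type arrays was subtracted from that of the mmi1-ts3 arrays. This difference was available for 4771 genes, those with a value on all 4 arrays out of 4880 named on the table. The title of 1 array per strain carries a code. The same difference can therefore be taken separately between the arrays without a code (the uncoded set) and between those with one (the coded set), which share no array; values for the sets are marked uncoded and coded.

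Mmi1 is a nuclear RNA-binding protein of the YTH family. It recognises short repeated motifs in meiotic transcripts that are made at the wrong time, during vegetative growth, and hands those transcripts to the nuclear exosome through the Red1 and Mtl1 complex and the poly(A)-binding protein Pab2. In meiosis the RNA-binding protein Mei2 sequesters Mmi1 with a non-coding RNA, and the same transcripts persist. Many of them encode proteins of meiotic prophase: the cohesin Rec8, the linear elements that form along chromosomes in place of a synaptonemal complex, and the dynein machinery that drags the nucleus back and forth.

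The values describe responses only. No array held both strains, so their levels at 25 °C cannot be compared, and a transcript already raised in mmi1-ts3 at 25 °C would show a small ratio. Positive values were read as higher at 36 °C, a direction the labels leave unsettled and the rise of heat shock genes on all 4 arrays makes likely. No source used here names the log base, which was read as 2; a natural log would place every value further from 0. Nothing states that the arrays of a strain came from separate cultures, so the spread between them may be technical. As centred, arrays were more alike within a set than within a strain, though only slightly in the coded set. Across genes, Pearson's r was 0.907 between the strains in the uncoded set and 0.873 in the coded set, against 0.868 between the mmi1-ts3 arrays and 0.774 between the wild-type arrays; these points share probes, and no p is given.

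The strain difference also moved with the line of the value table. Medians over blocks of 100 lines ran from −0.40 to 0.62 in the uncoded set and from −0.35 to 0.44 in the coded set. In the last 288 lines, 20 spots of wild-type replicate 2 lay over 4-fold above the median of the other arrays, against 2 of mmi1-ts3 replicate 2 and 0 of each remaining array. A running median over 50 lines on either side was also subtracted, and the counts of each gene list described below are given with and without it. After that step r was 0.890 between the mmi1-ts3 arrays, above the 0.885 between the strains in the coded set. In the uncoded set it was 0.926, and between the wild-type arrays 0.837. The part of table position in the gene differences was otherwise not tested.

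**Figure D1:**
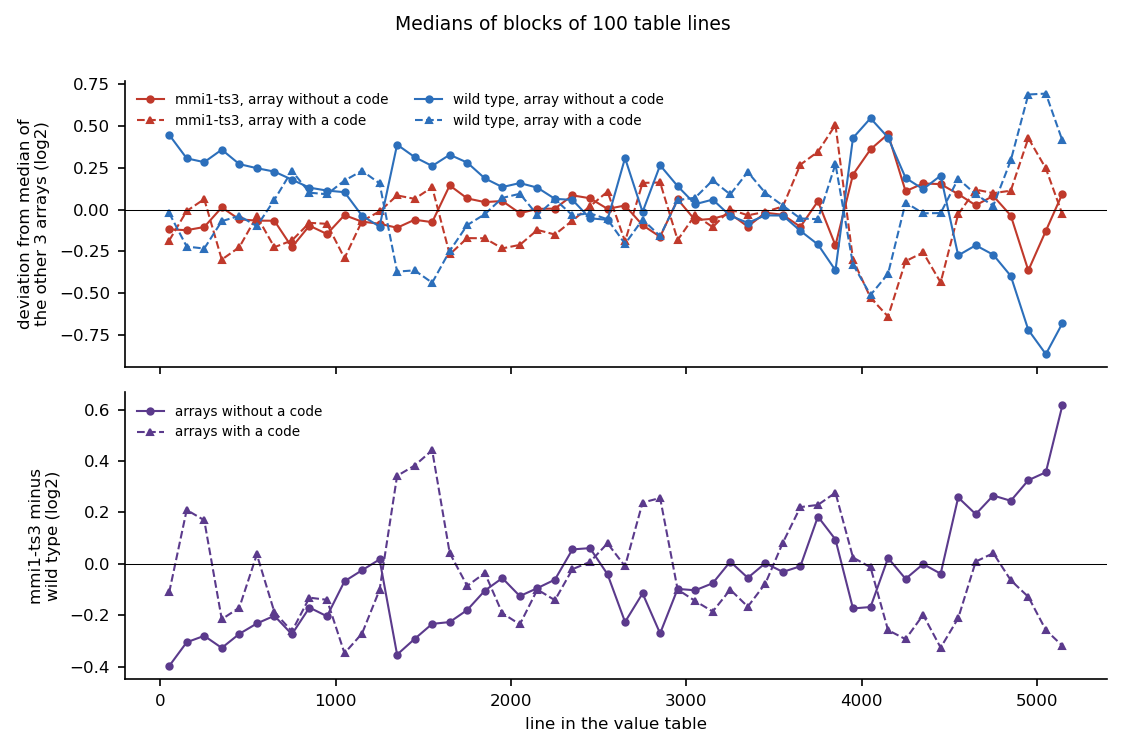
The upper panel plots, for blocks of 100 lines of the value table, the median deviation of each array from the median of the other 3 arrays (log2). The lower panel plots the median of mmi1-ts3 minus wild type (log2) in the uncoded set, which runs from −0.40 to 0.62, and in the coded set, which runs from −0.35 to 0.44. Filled circles and solid lines are arrays without a title code, triangles and dashed lines those with one.

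Transcripts of meiotic prophase and of unclassified meiotic genes stood furthest above their wild-type response. By size, 9 genes (0.189% of those tested) had every mmi1-ts3 array at least 2-fold above every wild-type array: mug9, crs1, mug8, rec8, tht2, mug45, bqt1, dbp2 and nc-pho1. In 2 (0.0419%), inv1 and SPOM_SPCC594.04C, they lay at least 2-fold below. The distance between the closest arrays of the strains, called the gap here, was 1.03 for nc-pho1, the last gene inside that limit, and 0.99 for jnm1, the first outside it. Regardless of size, 444 genes (9.31%) were higher and 972 (20.4%) lower without overlap, meaning that both mmi1-ts3 arrays lay beyond both wild-type arrays. Of these, 31.4% were higher, a share that was 45.7% without centring and 42.8% after quantile normalization. With limma, 0 genes were higher and 0 lower at an adjusted p under 0.05, and the smallest adjusted p was 0.254. Unadjusted, 49 genes (1.03%) were higher and 41 (0.859%) lower at p under 0.05. An exact permutation test of 2 arrays against 2 cannot fall below 0.333 and was not used.

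After the running median was subtracted, limma called 3 genes higher (0.0629%) and 0 lower, with 58 (1.22%) and 49 (1.03%) at an unadjusted p under 0.05. The 3 were mug9 (2.86 ± 0.27, adjusted p = 0.0445), crs1 (2.71 ± 0.27, adjusted p = 0.0445) and mug8 (2.38 ± 0.25, adjusted p = 0.0477). When the sets also entered the model as a block, a setting chosen after seeing the data, 10 genes (0.21%) were called higher and 2 (0.0419%) lower. The 10 were those 3 with rec8, mug45, tht2, dbp2, nc-pho1, mek1 and rec25, at adjusted p from 0.0044 to 0.0448. The 2 lower genes were inv1 (adjusted p = 0.0223) and SPOM_SPCC594.04C (adjusted p = 0.0448). In limma the block without the running median called 0 genes, with a smallest adjusted p of 0.311, while 96 were higher and 117 lower at an unadjusted p under 0.05. By size, the running median left 14 genes (0.293%) at least 2-fold higher and 4 (0.0838%) lower, and 515 (10.8%) and 839 (17.6%) without overlap regardless of size.

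Among the genes with the 20 largest gaps, 17 rose after the shift in mmi1-ts3 and 1 fell (limma, adjusted p under 0.05), while in wild type 3 rose and 3 fell. Over all genes, 14.9% rose and 19.6% fell in mmi1-ts3, and 13.5% rose and 14.5% fell in wild type. On all arrays, 8 of these 20 were above 0 in mmi1-ts3 and below 0 in wild type. The 20 were chosen by their values, so these counts describe them only. After the running median was subtracted, the strains still did not overlap for any of the 20, nor for 14 of the 15 largest gaps lower.

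**Figure D2:**
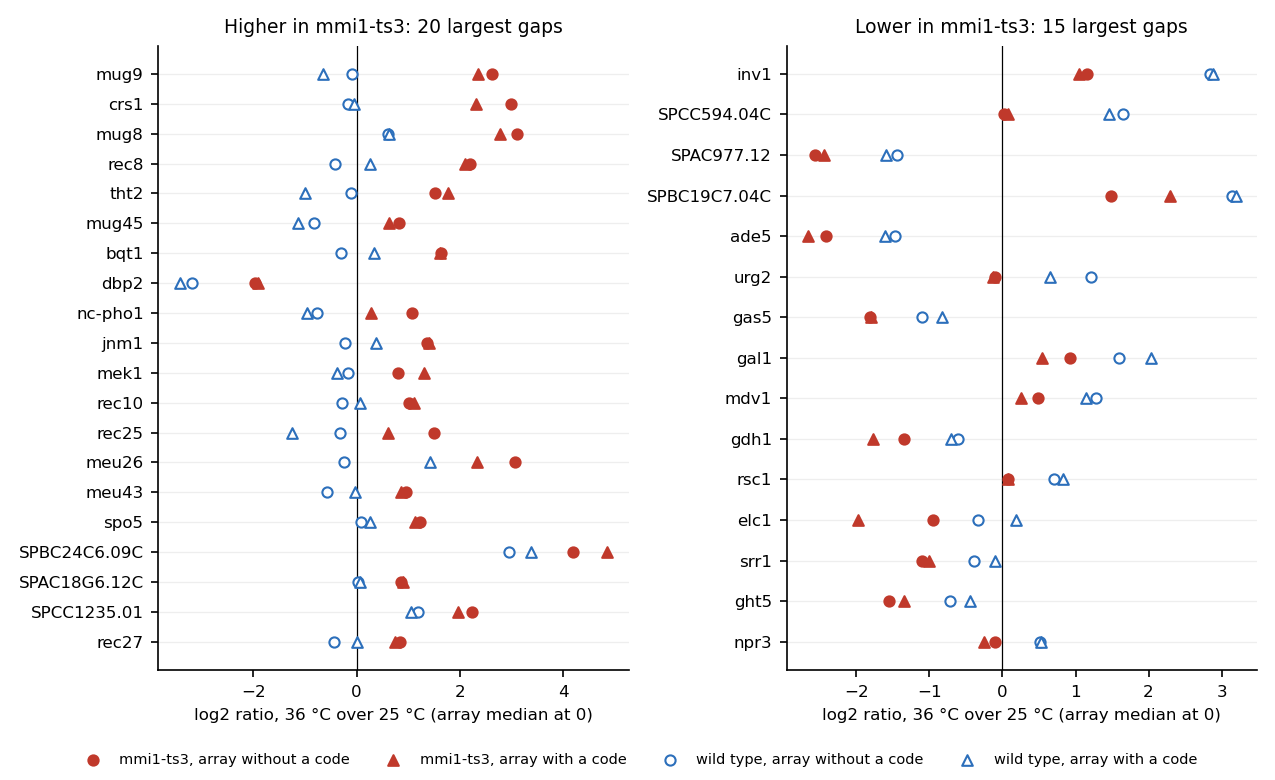
Each row is a gene and each point an array: the x axis gives the log2 ratio of 36 °C over 25 °C with the array median at 0, filled red points are mmi1-ts3 and open blue points wild type. On the left are the 20 largest gaps higher in mmi1-ts3, where 19 of the 20 have a mmi1-ts3 mean above 0; on the right are the 15 largest gaps lower.

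The meiotic genes of unknown function led. For mug9 the ratios were 2.62 and 2.35 in mmi1-ts3, against −0.09 and −0.65 in wild type, a difference of 2.85 ± 0.29 (SE, n = 2 per strain), or 7.23-fold. For mug8 they were 3.11 and 2.78 in mmi1-ts3, against 0.61 and 0.64 in wild type, a difference of 2.32 ± 0.25. The third, mug45, had ratios of 0.83 and 0.63 in mmi1-ts3, against −0.82 and −1.12 in wild type, a difference of 1.70 ± 0.25. No wild-type array reached a mmi1-ts3 array for any of these 3 genes, and the sets gave like differences: 2.71 uncoded and 3.00 coded for mug9, 2.495 uncoded and 2.14 coded for mug8 and 1.65 uncoded and 1.75 coded for mug45. Wild-type mug8 was itself positive on both arrays, whereas mug9 and mug45 were negative on both.

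The cyclin crs1, which acts in the meiotic divisions, had ratios of 2.99 and 2.31 in mmi1-ts3, against −0.17 and −0.05 in wild type, a difference of 2.76 ± 0.31 or 6.78-fold. In wild type it hardly departed from the array median; in mmi1-ts3 both arrays lay over 2 log2 units above it. Of the other division genes on the list of Mmi1 targets, spo5, an RNA-binding protein needed for meiosis II and sporulation, had 1.24 and 1.12 in mmi1-ts3, against 0.09 and 0.26 in wild type, a difference of 1.01 ± 0.23. Its gap was 0.87. For mei4, the forkhead transcription factor of the middle meiotic genes, the ratios were 0.74 and 0.18 in mmi1-ts3, against 0.38 and −0.10 in wild type, and the strains overlapped. The meiotic cyclin rem1 also overlapped, at 0.23 and 0.68 on the mmi1-ts3 arrays and −0.10 and 0.57 on the wild-type arrays.

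Sister chromatid cohesion was represented by rec8, the meiotic kleisin, with 2.19 and 2.10 in mmi1-ts3, against −0.41 and 0.26 in wild type, a difference of 2.22 ± 0.30 or 4.66-fold. Its partner rec11, the meiotic SA-type cohesin subunit, had 0.84 and 0.60 in mmi1-ts3, against −0.04 and 0.01 in wild type, a difference of 0.74 ± 0.24. The kinetochore protein moa1, which acts with Rec8 to orient sister kinetochores together, had 1.60 and 1.04 in mmi1-ts3, against −0.30 and 0.74 in wild type, a difference of 1.10 ± 0.42. All 3 were higher without overlap, rec8 and rec11 in both sets and moa1 mostly in the uncoded set, at 1.90 uncoded and 0.30 coded. The SMC cohesin subunit psm3 lay the other way, at −0.36 and −0.45 in mmi1-ts3, against −0.01 and 0.01 in wild type, a difference of −0.40 ± 0.23. Over the whole list of cohesin subunits, loaders and protectors, 4 of 16 (25%) were higher and 4 (25%) lower without overlap, with 5 and 3 after the running median. Over all genes 9.31% were higher and 20.4% lower, or 10.8% and 17.6% after the running median. The list median was 0.05 (−0.23 to 0.32 with 1 array left out), against −0.07. The list as a whole therefore stood near all genes in its median, and its 3 meiotic members named here stood above them.

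The linear elements were higher as a group. All 6 measured members were higher in mmi1-ts3 without overlap (100%, against 9.31% of all genes), as they were after the running median, with a list median of 1.08 (1.28 uncoded, 0.89 coded), against −0.07 (−0.09 uncoded, −0.06 coded) over all genes. Only rec10 of the 6 is also on the Mmi1 target list, and the other 5 had a median of 1.01. This list too was chosen with earlier results of these data known, so it is not independent evidence of its direction. The linear element protein rec25 had ratios of 1.499 and 0.60 in mmi1-ts3, against −0.32 and −1.24 in wild type, a difference of 1.83 ± 0.45. Its partner rec27 had 0.83 and 0.75 in mmi1-ts3, against −0.44 and 0.01 in wild type, a difference of 1.01 ± 0.27. The scaffold protein rec10 had 1.01 and 1.10 in mmi1-ts3, against −0.28 and 0.07 in wild type, a difference of 1.16 ± 0.25. In wild type these 3 genes lay between −1.24 and 0.07, and none of those values reached a mmi1-ts3 value. For mek1, the meiotic checkpoint kinase that works on these axes, the ratios were 0.80 and 1.30 in mmi1-ts3, against −0.17 and −0.37 in wild type, a difference of 1.32 ± 0.28. The remaining members differed less. For hop1, the HORMA-domain axis protein, the values were 1.25 and 0.58 in mmi1-ts3, against −0.09 and 0.48 in wild type, a gap of only 0.10. The linear element gene mug20 had 0.21 and 0.19 in mmi1-ts3, against −0.24 and −0.05 in wild type, a difference of 0.35 ± 0.23.

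Genes that act on the axes showed less. Of the genes of double-strand break formation and strand exchange, 5 of 25 (20%) were higher and 0 lower without overlap. All genes stood at 9.31% and 20.4%. After the running median 5 were higher and 3 lower, against 10.8% and 17.6% of all genes. The list median was 0.09, against −0.07 over all genes. The break-forming enzyme rec12, the Spo11 homologue, had 0.43 and 0.84 in mmi1-ts3, against −0.10 and 0.35 in wild type, a difference of 0.51 ± 0.29. For its accessory factor rec15 the ratios were −0.04 and 0.12 in mmi1-ts3, against −0.23 and −1.52 in wild type, and most of that difference came from the coded set, at 0.19 uncoded and 1.64 coded. The end-processing protein ctp1 had 0.76 and 1.30 in mmi1-ts3, against 0.51 and 0.56 in wild type. All 3 were higher on every mmi1-ts3 array, by gaps of 0.08, 0.19 and 0.21.

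Nuclear fusion, the telomere bouquet and the dynein-driven horsetail movement contributed tht2, bqt1 and jnm1 to the top of the ranking. For tht2, a gene of nuclear fusion, the ratios were 1.51 and 1.76 in mmi1-ts3, against −0.11 and −1.002 in wild type, a difference of 2.19 ± 0.36 or 4.58-fold. For bqt1, a telomere-clustering protein of the meiotic bouquet, they were 1.64 and 1.61 in mmi1-ts3, against −0.29 and 0.33 in wild type, a difference of 1.60 ± 0.29. The dynactin subunit jnm1 had 1.36 and 1.40 in mmi1-ts3, against −0.22 and 0.38 in wild type, a difference of 1.31 ± 0.29. The mmi1-ts3 arrays of bqt1 and jnm1 lay close together, and the wild-type arrays fell on either side of 0. On this list 6 of 21 (28.6%) were higher and 3 (14.3%) lower without overlap, against 9.31% and 20.4% of all genes. After the running median 8 were higher and 4 lower, against 10.8% and 17.6% of all genes. The list median was 0.33 (0.30 uncoded, 0.03 coded), and 0.16 without the Mmi1 targets, against −0.07 over all genes. The horsetail protein mcp6, which organises the microtubules at the spindle pole body, had 1.18 and 0.55 in mmi1-ts3, against −0.12 and 0.31 in wild type, a difference of 0.77 ± 0.32.

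Several Mmi1 targets had a large positive difference in the uncoded set and none of that size in the coded set. For ssm4, the large dynactin subunit, the ratios were 1.89 and 0.64 in mmi1-ts3, against −0.28 and 0.72 in wild type, giving 2.17 uncoded and −0.09 coded. For num1, the cortical anchor of dynein, they were 2.06 and 0.70 in mmi1-ts3, against −0.17 and 0.59 in wild type, giving 2.23 uncoded and 0.11 coded. For mcp7, which assists meiotic strand exchange, they were 2.27 and 2.01 in mmi1-ts3, against −0.18 and 3.05 in wild type, giving 2.44 uncoded and −1.04 coded. In these 3 the uncoded difference exceeded 2; in the coded set the strains nearly met for ssm4 and num1, and mcp7 was lower in mmi1-ts3. The mug10 gene stood between, at 1.18 and 0.68 in mmi1-ts3, against −0.06 and 0.37 in wild type, a difference of 0.78 ± 0.30. For mug5 the wild-type coded array was the highest of the 4, at 0.60 and 0.22 on the mmi1-ts3 arrays and −0.15 and 1.25 on the wild-type arrays. No direction can be given for mug4, at −0.40 and 0.00 on the mmi1-ts3 arrays and −0.11 and −0.47 on the wild-type arrays. Of these 6 genes mcp7 alone lies in the last table lines, and leaving out single arrays moved it between −0.91 and 2.32.

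Across all 16 Mmi1 targets measured, 10 (62.5%) were higher and 0 lower without overlap, against 9.31% and 20.4% of all genes. After the running median 11 were higher and 0 lower, against 10.8% and 17.6% of all genes. The list median was 1.10 (1.62 uncoded, 0.67 coded), against −0.07 over all genes. Part of the list comes from work on these samples, so it is not independent evidence of its direction. In mmi1-ts3, 11 of the 16 rose and 0 fell, against 14.9% and 19.6% of all genes. In wild type 1 rose and 1 fell, against 13.5% and 14.5% of all genes. The list median on single arrays was 1.30 and 0.90 in mmi1-ts3, against −0.16 and 0.31 in wild type, and the wild-type median was below 0 on the uncoded and above 0 on the coded array.

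**Figure D3:**
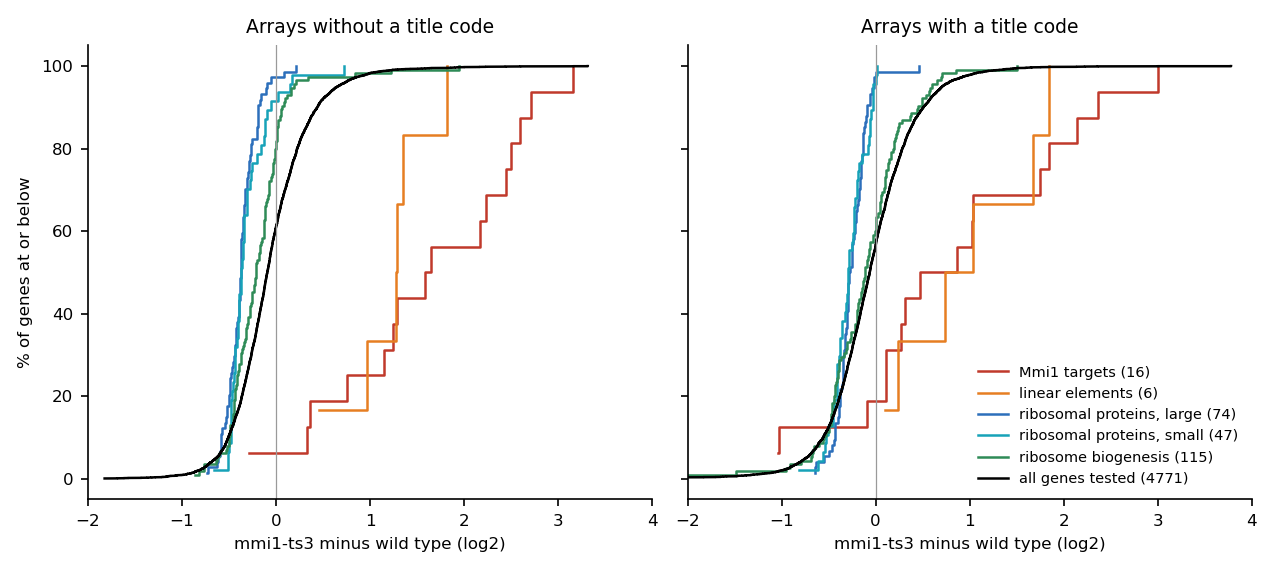
Cumulative distributions of mmi1-ts3 minus wild type (log2, x axis) in the uncoded set (left) and the coded set (right), with the few values beyond the axis not drawn; the y axis gives the percentage of a list's genes at or below each value. Mmi1 targets (median 1.62 and 0.67) and linear elements (1.28 and 0.89) lie right of all genes in both sets, and ribosomal proteins of the large (−0.38 and −0.28) and small subunit (−0.37 and −0.29) lie left.

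Other genes first found by their expression in meiosis were higher in part. Of the meu and mde genes, 9 of 24 (37.5%) were higher and 0 lower without overlap, against 9.31% and 20.4% of all genes. After the running median 10 were higher and 2 lower, against 10.8% and 17.6% of all genes. The list median was 0.15 (0.32 uncoded, 0.17 coded), against −0.07 over all genes. The largest was meu26, with 3.07 and 2.32 in mmi1-ts3, against −0.24 and 1.43 in wild type, a difference of 2.10 ± 0.60. Its sets differed, at 3.32 uncoded and 0.89 coded, and its coded wild-type array was itself at 1.43. For meu43 the ratios were 0.95 and 0.86 in mmi1-ts3, against −0.58 and −0.02 in wild type, a difference of 1.21 ± 0.28. The gene meu32 had 1.005 and 0.58 in mmi1-ts3, against 0.07 and −0.14 in wild type, a difference of 0.82 ± 0.27. Both were above every wild-type array. The much larger class of mug genes held both directions. Of 86, 15 (17.4%) were higher and 11 (12.8%) lower without overlap, with 24 and 7 after the running median. That higher share lay above, and the lower share below, the share over all genes. Outside the Mmi1 targets 11 of 80 were higher and 11 lower (13.8% each), or 20 and 7 after the running median, with a median of 0.08 (−0.0862 to 0.19 with 1 array left out). One of the higher ones was mug24, with 0.73 and 0.76 in mmi1-ts3, against 0.15 and −0.90 in wild type, a difference of 1.12 ± 0.39.

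The lists of mating, meiotic entry, divisions and sporulation had small medians whose signs turned when single arrays were left out; over all genes 9.31% were higher and 20.4% lower without overlap. Of the mating pheromone genes, 2 of 16 (12.5%) were higher and 1 (6.25%) lower without overlap, and as many after the running median, and the list median was 0.02 (−0.0387 to 0.10 with 1 array left out). Of the genes of entry into meiosis, 5 of 29 (17.2%) were higher and 2 (6.9%) lower without overlap, with 6 and 2 after the running median, and the list median was 0.03 (−0.0685 to 0.069 with 1 array left out). Of the division genes outside the Mmi1 targets, 2 of 21 (9.52%) were higher and 6 (28.6%) lower without overlap, with 1 and 4 after the running median, and the list median was 0.06 (−0.14 to 0.12 with 1 array left out). Of the sporulation genes, 4 of 32 (12.5%) were higher and 5 (15.6%) lower without overlap, with 6 and 5 after the running median, and the list median was −0.03 (−0.12 to 0.055 with 1 array left out). Single members did stand apart. The RNA export factor crp79 had 0.43 and 0.64 in mmi1-ts3, against −0.05 and −0.38 in wild type, a difference of 0.76 ± 0.26. The bZIP factor atf21 had 0.15 and 1.30 in mmi1-ts3, against −0.27 and −0.20 in wild type, most of it in the coded set. The spore wall gene meu10 had 0.33 and 0.48 in mmi1-ts3, against −0.18 and −0.18 in wild type, a difference of 0.58 ± 0.23. In these 3 every mmi1-ts3 array lay above every wild-type array. In the other direction, the anaphase activator slp1 had −2.12 and −1.33 in mmi1-ts3, against −1.04 and −0.44 in wild type, a difference of −0.98 ± 0.37. The spore wall glucanosyltransferase gas4 had −2.53 and −1.48 in mmi1-ts3, against −0.96 and −1.07 in wild type, a difference of −0.99 ± 0.39. Both were lower on every mmi1-ts3 array. For the M-factor precursor mfm1 the coded pair differed by 2.11 and the uncoded pair by 0.07.

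The transcripts of Mmi1 and of the elimination machinery showed no common shift. For mmi1 itself the ratios were 0.23 and 0.66 in mmi1-ts3, against −0.24 and 1.01 in wild type, and the strains overlapped. The spot lies in the last table lines, and the allele is temperature-sensitive, so its transcript is no check of the labels. Of the machinery and its regulators, 2 of 15 (13.3%) were higher and 5 (33.3%) lower without overlap, and as many after the running median, against 9.31% and 20.4% of all genes. The list median was 0.06 (−0.12 uncoded, 0.01 coded, −0.15 to 0.21 with 1 array left out). The helicase mtl1 was lower without overlap, at −0.97 and −1.29 in mmi1-ts3, against −0.42 and −0.31 in wild type, a difference of −0.77 ± 0.25. So was the poly(A)-binding protein pab2, at −0.90 and −1.31 in mmi1-ts3, against −0.53 and −0.70 in wild type, a difference of −0.49 ± 0.26. The poly(A) polymerase pla1 (−0.30), the cap-binding subunit cbc1 (−0.27) and the ARS2 homologue pir2 (−0.26) had smaller negative differences. None of these 5 strain pairs overlapped. The zinc-finger scaffold red1 was nearly at the array median everywhere, at 0.07 and −0.02 on the mmi1-ts3 arrays and −0.01 and −0.03 on the wild-type arrays. The signs of the rest were mixed, with differences of 0.44 for rmn1, 0.42 for rhn1, 0.40 for cbc2, 0.18 for iss10, 0.17 for red5, 0.08 for nrl1 and −0.25 for pcf11. The meiotic inducer mei2 was higher, at 0.17 and 1.21 in mmi1-ts3, against −0.09 and −0.44 in wild type, a difference of 0.95 ± 0.40 that lay mostly in the coded set.

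Nuclear RNA decay and silencing factors were mixed. Over all genes 9.31% were higher and 20.4% lower without overlap. Of the exosome, TRAMP and exonuclease genes, 1 of 21 (4.76%) were higher and 3 (14.3%) lower without overlap, with 2 and 6 after the running median, and the list median was −0.07 (−0.20 to 0.0605 with 1 array left out). Of the CCR4-NOT and Pan deadenylase genes, 1 of 11 (9.09%) were higher and 5 (45.5%) lower without overlap, with 0 and 2 after the running median, and the list median was −0.12. The deadenylase ccr4 had −0.72 and −0.85 in mmi1-ts3, against −0.46 and −0.29 in wild type, a difference of −0.41 ± 0.24. Of the RNA interference and heterochromatin genes, 5 of 23 (21.7%) were higher and 2 (8.7%) lower without overlap, with 6 and 1 after the running median, and the list median was 0.10 (0.02 uncoded, 0.17 coded, −0.005 to 0.30 with 1 array left out). For stc1, which links RNA interference to histone methylation, the ratios were 1.75 and 1.10 in mmi1-ts3, against 0.81 and 0.22 in wild type, a difference of 0.91 ± 0.35. Dicer, dcr1, had 0.70 and 0.42 in mmi1-ts3, against 0.09 and −0.21 in wild type, a difference of 0.62 ± 0.26. For cid12, a subunit of the RNA-directed RNA polymerase complex, they were −0.09 and −0.20 in mmi1-ts3, against −0.68 and −0.66 in wild type, a difference of 0.53 ± 0.23. These 3 had like differences in both sets. The histone deacetylase clr3 was lower, at −0.34 and −0.29 in mmi1-ts3, against −0.04 and 0.42 in wild type.

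Outside meiosis, the helicase dbp2 and the RNA named nc-pho1 were among the 9. The RNA helicase dbp2 fell in both strains, to −1.96 and −1.91 in mmi1-ts3, against −3.18 and −3.42 in wild type. Its difference of 1.36 ± 0.24 therefore means a shallower fall in mmi1-ts3, by 2.58-fold. It is on the ribosome biogenesis list, where it was the only gene of 115 higher without overlap (1 of 2 after the running median). For nc-pho1 the ratios were 1.07 and 0.28 in mmi1-ts3, against −0.76 and −0.96 in wild type, a difference of 1.54 ± 0.34, positive on both mmi1-ts3 arrays and negative on both wild-type arrays. The array annotation gives the spot a gene ID that RefSeq now names nc-pho1, a long non-coding RNA. In RefSeq the gene model of pho1, the acid phosphatase, overlaps nc-pho1, so RNA of the 2 cannot be told apart at this spot. The spot may have been designed for pho1. Other phosphate genes did not share its size. The polyphosphate synthesis genes vtc2 and vtc4 differed by 0.70 ± 0.27 and 0.45 ± 0.25, and the transporter pho84, next to nc-pho1, by 0.24 ± 0.23. On the phosphate list 3 of 11 (27.3%) were higher and 1 (9.09%) lower without overlap, against 9.31% and 20.4% of all genes. After the running median 5 genes of this list were higher and 0 lower. Its median was −0.01 (−0.12 to 0.073 with 1 array left out), and 0.12 after the running median.

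Of the 3 uncharacterised genes in the top 20, SPOM_SPBC24C6.09C responded strongly in both strains, at 4.18 and 4.85 in mmi1-ts3, against 2.95 and 3.37 in wild type, a difference of 1.36 ± 0.33. SPOM_SPCC1235.01 had 2.24 and 1.95 in mmi1-ts3, against 1.19 and 1.06 in wild type, a difference of 0.97 ± 0.25. SPOM_SPAC18G6.12C had 0.86 and 0.89 in mmi1-ts3, against 0.03 and 0.07 in wild type, a difference of 0.82 ± 0.23. The strains did not overlap for any of them, and the first 2 rose in wild type as well.

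Genes next to the highest ones were also read. The nearest measured genes on either side of the 10 with the largest gaps, 20 genes in all, had a median difference of −0.04 and ran from −0.51 to 0.57. Without overlap 2 of the 20 were higher and 4 lower, against 9.31% and 20.4% of all genes, and 0 reached 2-fold on both arrays. Neighbouring gene models often overlap in this genome: 18 of the 20 highest genes (90%) and 91.4% of all genes overlap another RefSeq gene, non-coding genes included. Overlap with a protein-coding gene held for 11 of the 20 (55%) and for 42.8% of all. The strand that the spots report is not named by any source used here.

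An invertase and an uncharacterised gene stood furthest below their wild-type response. The invertase inv1 had 1.15 and 1.04 in mmi1-ts3, against 2.84 and 2.88 in wild type, a difference of −1.76 ± 0.23, with −1.69 uncoded and −1.83 coded. It rose in both strains and less in mmi1-ts3. SPOM_SPCC594.04C had 0.03 and 0.08 in mmi1-ts3, against 1.65 and 1.46 in wild type, a difference of −1.50 ± 0.23. These 2 had the largest gaps lower, −1.69 and −1.38, and the next gene, SPOM_SPAC977.12, had −0.85. Its ratios were −2.56 and −2.45 in mmi1-ts3, against −1.45 and −1.60 in wild type. For SPOM_SPBC19C7.04C they were 1.49 and 2.29 in mmi1-ts3, against 3.14 and 3.19 in wild type, a difference of −1.27 ± 0.33. Of the 15 largest gaps lower, 3 rose and 7 fell in mmi1-ts3, and 7 rose and 4 fell in wild type (limma, adjusted p under 0.05). All genes stood at 14.9% and 19.6% in mmi1-ts3, and at 13.5% and 14.5% in wild type. The 15 were chosen by their values, so these counts describe them only.

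Galactokinase, gal1, had 0.92 and 0.55 in mmi1-ts3, against 1.59 and 2.03 in wild type, a difference of −1.08 ± 0.29. The glucose transporter ght5 had −1.55 and −1.35 in mmi1-ts3, against −0.72 and −0.45 in wild type, a difference of −0.86 ± 0.25, and its relative ght6 −1.09 and −0.98 in mmi1-ts3, against −0.55 and −0.21 in wild type, a difference of −0.65 ± 0.25. In both transporters every mmi1-ts3 array was the lower. Of the whole list of sugar transport and glucose-repressed genes, 2 of 28 (7.14%) were higher and 9 (32.1%) lower without overlap, with 2 and 8 after the running median. All genes stood at 9.31% and 20.4%, or 10.8% and 17.6% after the running median. The list median was −0.03, against −0.07 over all genes. After the running median it was −0.13, against −0.05, so the place of the list relative to all genes turned. Paralogous transporters are similar in sequence, and whether their spots are independent was not tested.

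Of the glucan and wall genes, 2 of 31 (6.45%) were higher and 14 (45.2%) lower without overlap, with 6 and 10 after the running median, against 9.31% and 20.4% of all genes, or 10.8% and 17.6% after the running median. The list median was −0.29 (−0.12 uncoded, −0.38 coded), and after the running median −0.20 (−0.03 uncoded, −0.35 coded). The glucanosyltransferase gas5 had −1.82 and −1.81 in mmi1-ts3, against −1.10 and −0.82 in wild type, a difference of −0.85 ± 0.24. The glucanase exg1 had −2.53 and −1.47 in mmi1-ts3, against −0.95 and −0.39 in wild type, a difference of −1.33 ± 0.42. The septum-degrading glucanase eng1 fell strongly in both strains, at −2.77 and −2.78 in mmi1-ts3, against −2.40 and −2.13 in wild type.

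Of the purine and pyrimidine genes, 0 of 21 were higher and 9 (42.9%) lower without overlap, with 0 and 5 after the running median, against 20.4% of all genes lower. Their median was −0.29 (−0.26 uncoded, −0.33 coded). The purine enzyme ade5 had −2.42 and −2.66 in mmi1-ts3, against −1.47 and −1.61 in wild type, a difference of −0.999 ± 0.24. Smaller differences were −0.44 for gua1, −0.34 for ura6 and −0.29 for ade8. The uracil-regulated gene urg2 had −0.10 and −0.13 in mmi1-ts3, against 1.22 and 0.65 in wild type, a difference of −1.05 ± 0.28. Of the amino acid synthesis genes, 4 of 65 (6.15%) were higher and 30 (46.2%) lower without overlap, with 5 and 17 after the running median. Their median was −0.13 (−0.09 uncoded, −0.18 coded). All genes stood at 9.31% higher and 20.4% lower, or 10.8% and 17.6% after the running median. The glutamate dehydrogenase gdh1 had −1.34 and −1.77 in mmi1-ts3, against −0.61 and −0.70 in wild type, a difference of −0.90 ± 0.26. The sulfur genes met1 and met10 differed by −0.56 ± 0.24 and −0.44 ± 0.23, and the proline gene pro2 by −0.54 ± 0.26. Other members of the 15 have no common role. They include the RSC chromatin remodeller subunit rsc1 (−0.69), elongin C, elc1 (−1.40), the mitochondrial division factor mdv1 (−0.84), the TORC1 regulator npr3 (−0.70) and srr1 (−0.81). For elc1 the sets differed, at −0.63 uncoded and −2.17 coded.

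Ribosomal protein genes had negative differences as lists in both sets. Their list medians were below 0 on every array and further below in mmi1-ts3. For the large subunit the list median was −0.94 and −1.03 in mmi1-ts3, against −0.59 and −0.74 in wild type. For the small subunit it was −0.91 and −0.97 in mmi1-ts3, against −0.51 and −0.63 in wild type. Neither list's medians overlapped between the strains. Of the 74 large-subunit genes, 60 (81.1%) were lower without overlap and 0 higher, against 20.4% and 9.31% of all genes. Their median difference was −0.32 (−0.38 uncoded, −0.28 coded). Of the 47 small-subunit genes, 29 (61.7%) were lower and 0 higher, with a median of −0.31 (−0.37 uncoded, −0.29 coded). After the running median 45 and 25 were lower and 0 higher, against 17.6% of all genes lower. In mmi1-ts3, 70 of the 74 and 41 of the 47 fell by limma, against 19.6% of all genes. In wild type 45 and 18 fell, against 14.5% of all genes. No single gene of either list passed the test of the strain difference. The large-subunit gene rpl3202 had −1.30 and −1.44 in mmi1-ts3, against −0.57 and −0.79 in wild type, a difference of −0.69 ± 0.24. For rpl1102 the ratios were −1.30 and −1.29 in mmi1-ts3, against −0.68 and −0.74 in wild type, a difference of −0.58 ± 0.23. The small-subunit gene rps1002 had −1.23 and −0.97 in mmi1-ts3, against −0.57 and −0.52 in wild type, a difference of −0.56 ± 0.24, and rps20 −0.91 and −0.90 in mmi1-ts3, against −0.46 and −0.34 in wild type, a difference of −0.50 ± 0.23. The size rests on the scaling. With quantile normalization the medians were −0.17 and −0.19, against −0.02 over all genes, and without centring −0.26 and −0.25, against −0.00. Many ribosomal protein genes exist as near-identical pairs, which 1 spot may not tell apart.

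Median responses of the ribosome biogenesis, translation factor and RNA polymerase lists were below 0 in both strains. That of the mitochondrial ribosomal genes was 0.02 in each strain. Ribosome biogenesis genes had a median of −1.75 and −1.76 in mmi1-ts3, against −1.54 and −1.59 in wild type, further below 0 than ribosomal proteins. Of them, 31 of 115 (27%, against 20.4%) were lower without overlap, or 26 after the running median, and the median difference was −0.18. The rRNA helicase rok1 had −1.98 and −1.95 in mmi1-ts3, against −1.33 and −1.48 in wild type, a difference of −0.56 ± 0.23. For comparison, 9.31% of all genes were higher and 20.4% lower without overlap, or 10.8% and 17.6% after the running median. Of the translation factors, 2 of 45 were higher and 18 (40%) lower without overlap, with 3 and 15 after the running median. Their median was −0.22; the ribosomal scaffold cpc2 differed by −0.57 ± 0.24. Of the RNA polymerase genes, 1 of 45 were higher and 14 (31.1%) lower without overlap, with 2 and 10 after the running median. Their median was −0.15. Among these, the polymerase I factor rrn7 had −0.46 and −0.35 in mmi1-ts3, against 0.09 and 0.23 in wild type and the polymerase II subunit rpb1 −0.72 and −0.72 in mmi1-ts3, against −0.30 and −0.32 in wild type. Of the mitochondrial ribosomal genes, 7 of 55 (12.7%) were higher and 7 (12.7%) lower without overlap, with 4 and 9 after the running median, and the list median was −0.00 (−0.13 to 0.066 with 1 array left out).

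Heat shock and stress lists had medians whose signs turned with the setting. Of the small heat shock proteins and disaggregases, 2 of 10 (20%) were higher and 2 (20%) lower without overlap, and as many after the running median, against 9.31% and 20.4% of all genes. Their median was 0.12 (−0.15 to 0.22 with 1 array left out), 0.00075 after the running median and below 0 with the arrays scaled alike, so no direction is given; the median responses were 2.99 in mmi1-ts3 and 2.87 in wild type. The disaggregase hsp78 had 4.86 and 4.37 in mmi1-ts3, against 3.87 and 4.36 in wild type. The small heat shock protein hsp9 had 5.77 and 5.48 in mmi1-ts3, against 5.89 and 6.77 in wild type, a difference of −0.12 uncoded and −1.29 coded. Of the core stress genes, 4 of 41 (9.76%) were higher and 4 (9.76%) lower without overlap, with 3 and 1 after the running median, and the list median was −0.10 (−0.14 to 0.0495 with 1 array left out). The stress gene ddr48 was higher without overlap, at 6.81 and 6.46 in mmi1-ts3, against 6.20 and 5.76 in wild type, and so was the calcium pump cta3, at 1.36 and 1.24 in mmi1-ts3, against 0.73 and 0.71 in wild type; gst3, a glutathione transferase, was lower, at 2.82 and 2.60 in mmi1-ts3, against 3.26 and 3.23 in wild type. Of the proteasome genes, 2 of 35 (5.71%) were higher and 6 (17.1%) lower without overlap, with 3 and 4 after the running median, and the list median was −0.01 (−0.19 to 0.12 with 1 array left out). Of the splicing genes, 7 of 80 (8.75%) were higher and 7 (8.75%) lower without overlap, with 5 and 8 after the running median, and the list median was −0.05 (−0.15 to 0.0498 with 1 array left out).

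Of the genes of M/G1 and septation, 2 of 27 (7.41%) were higher and 11 (40.7%) lower without overlap, with 1 and 9 after the running median, against 9.31% and 20.4% of all genes. Their median was −0.19, and −0.09 after the running median. The survivin homologue bir1 had −0.65 and −0.95 in mmi1-ts3, against −0.30 and −0.21 in wild type, and the mitotic kinesin cut7 −0.29 and −0.56 in mmi1-ts3, against 0.12 and 0.04 in wild type. Of the G1/S genes, 3 of 28 (10.7%) were higher and 5 (17.9%) lower without overlap, with 3 and 6 after the running median, shares close to those of all genes, and the list median was −0.09 (−0.26 to 0.0633 with 1 array left out). The ribonucleotide reductase cdc22 had −2.29 and −1.99 in mmi1-ts3, against −1.65 and −1.38 in wild type, a difference of −0.62 ± 0.26. Of the Tf2 retrotransposons, 0 of 11 were higher and 9 (81.8%) lower without overlap, and as many after the running median. The list median was −0.50 (−0.37 uncoded, −0.52 coded). In wild type 10 of the 11 rose by limma, against 13.5% of all genes, and in mmi1-ts3 0 did, against 14.9%. The median response of the 11 copies was still above 0 in mmi1-ts3. It was 0.62 and 0.40 on the mmi1-ts3 arrays, against 0.99 and 0.89 in wild type. These copies are nearly identical in sequence, so the 11 values are not independent.

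**Figure D4:**
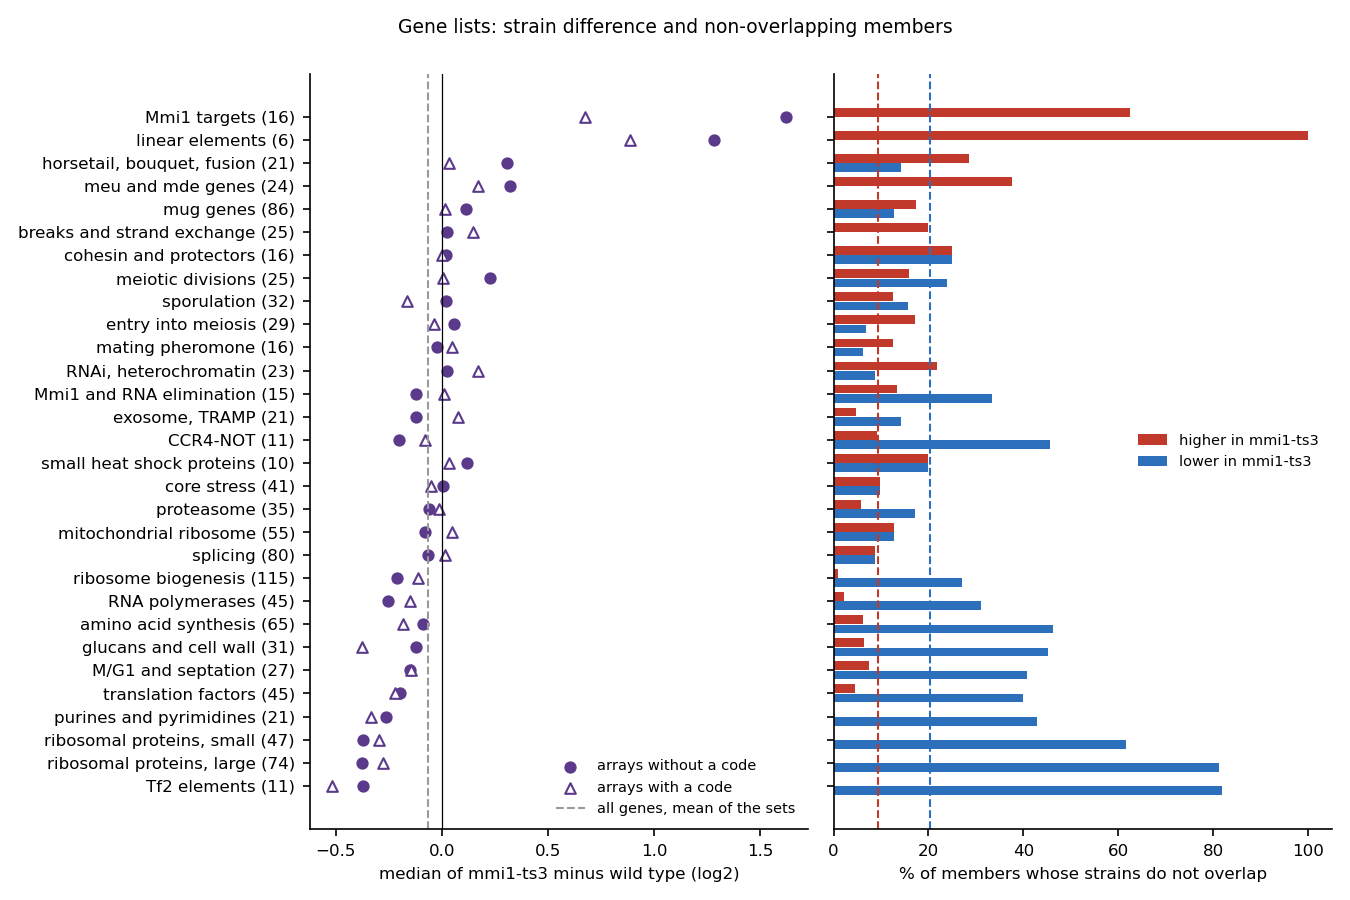
Rows are gene lists with the number of genes tested in brackets. The left panel gives the median of mmi1-ts3 minus wild type (log2) in the uncoded set (filled circles) and the coded set (open triangles), with all genes (−0.07, mean of both sets) as a dashed line. The right panel gives the percentage of members higher (red) or lower (blue) without overlap, with the shares over all genes, 9.31% and 20.4%, as dashed lines; linear elements reach 100% higher and large-subunit ribosomal proteins 81.1% lower.

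Across all 4771 genes, the difference in the uncoded set and that in the coded set had a Pearson r of 0.002 (Spearman rho 0.03). The SD across genes was 0.42 uncoded and 0.49 coded. After the running median r was 0.11, and without the last table lines it was 0.10 over 4516 genes. These are descriptions across genes, which share probes and table position. Of 80 genes at least 2-fold higher in the uncoded set, 14 (17.5%) were also 2-fold higher in the coded set, against 2.12% of all genes. Read the other way, those 14 were 13.9% of the genes at least 2-fold higher in the coded set, against 1.68% of all genes. At 3-fold, 7 were shared, 25.9% of 27 uncoded and 33.3% of 21 coded genes. For lower genes 4 were shared at 2-fold, 9.76% of 41 uncoded and 4.26% of 94 coded genes, against 1.97% and 0.859% of all genes. By sign alone, large differences did not recur throughout. Genes 2-fold higher in the uncoded set had a median of −0.05 in the coded set, where 48.8% were positive, against 43.4% of all genes. Those 2-fold higher in the coded set had a median of −0.04 in the uncoded set, where 47.5% were positive, against 39% of all genes. Of those 2-fold lower in the coded set, 26.6% were negative in the uncoded set, against 60.8% of all genes, and their median there was 0.38. After the running median these shares were 61.1%, 75.7% and 46.8%. Over all genes, 877 (18.4%) were positive and 1708 (35.8%) negative in both sets.

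**Figure D5:**
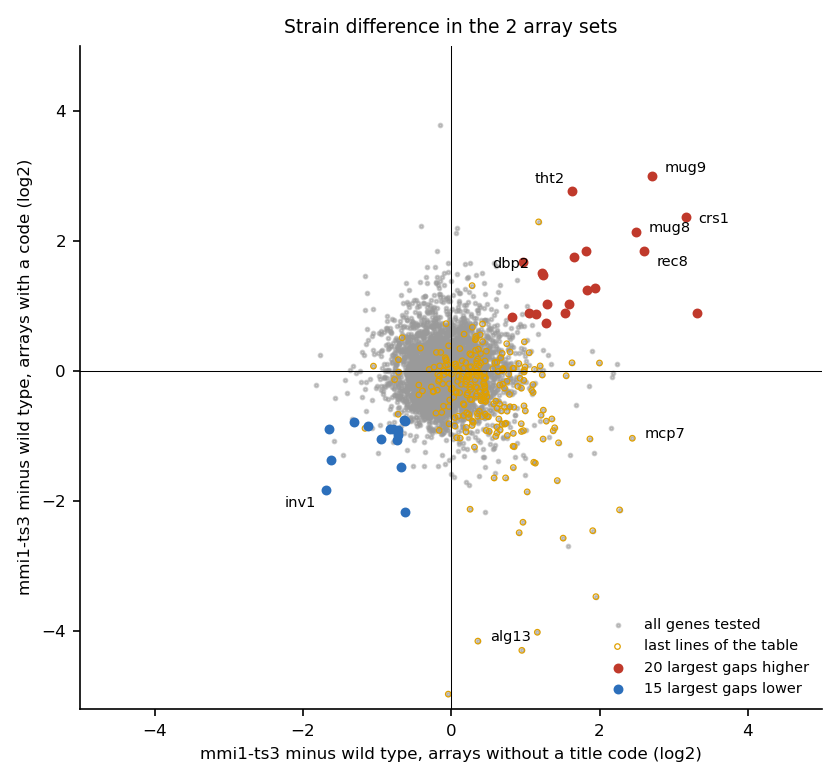
Each point is a gene: mmi1-ts3 minus wild type (log2) in the uncoded set on the x axis and in the coded set on the y axis. The 20 largest gaps higher (red) and 15 lower (blue) were chosen for not overlapping, which gives each the same sign in both sets. Over all 4771 genes r is 0.002. Genes of the last table lines (open yellow) spread toward the lower right.

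The genes whose sets disagreed most were all among the last table lines. In utp14, pnk1, meu34, alg13, btn1 and rbk1 the uncoded difference was positive and the coded one negative. The widest apart was utp14, a ribosome biogenesis factor, with 1.09 and 0.57 on the mmi1-ts3 arrays and −0.86 and 4.05 on the wild-type arrays. For the meiotic gene meu34 the ratios were 0.35 and 1.25 on the mmi1-ts3 arrays and −0.81 and 5.26 on the wild-type arrays. Wild-type replicate 2 was the highest of the 4 arrays in each, between 3.23 and 5.26, and no strain difference is read from them.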

How the data were processed

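Each array compared 2 channels of 1 strain, 36 °C over 25 °C. The deposited values are log2 ratios as read here. Neither the log base nor the authors' background correction, spot filters or normalization is named in the sources used here. Base 10 does not hold, because the highest value, 7.81, lies above 4.82, the 16-bit range on that scale. Per the labels channel 1 is Cy5, but the labelling protocol gives Cy3 and mentions no dye swap; a dye effect shared by all arrays cancels in the strain difference.

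Of 5188 table lines, 4933 carry 1 gene, 1 carries several and 254 carry none; 4930 matched RefSeq (ASM294v3), used for names, overlaps and neighbours only. Lines of a gene were averaged, and 4771 genes with values on all 4 arrays were tested, leaving out 109. Arrays were centred on their medians. Spots with a value numbered 5184 and 5132 on the mmi1-ts3 arrays and 5183 and 5121 on the wild-type arrays, and the number of arrays limits the precision.

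A mean per strain was fitted with limma 3.58.1 in R 4.3.3 (eBayes, 2 residual and 3.56 prior degrees of freedom, Benjamini-Hochberg adjustment over all genes), first tested on simulated data. The array set was not in that fit. The members and gene lists (40) were chosen with earlier results of these data known, and list members were corrected by name. Named genes were the 20 largest gaps higher and 15 lower, all Mmi1 targets, linear elements and elimination factors, up to 4 members of each other list by gap, and the 6 genes with the most opposed sets. Those of some lists near all genes are given as counts, as are the neighbours of the first 10. The lists of other chaperones, chaperonins, glycolysis, respiration, iron and copper, and histones are not described. In all, 18 alternatives were run, 2 of them added after seeing the data. Motifs near the genes were not analysed here.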

Additional observations from a re-analysis of the deposited data

Results flagged for a closer look

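With 2 arrays per strain, some genes had opposite signs on every array of the strains. Over all genes, 44 were above 0 on both mmi1-ts3 arrays and below 0 on both wild-type arrays, and 69 the reverse. Among the genes named above the first pattern was met by mug9 (difference 2.85), crs1 (2.76), tht2 (2.19), rec25 (1.83), mug45 (1.70), nc-pho1 (1.54), mek1 (1.32), meu43 (1.21), atf21 (0.96), mei2 (0.95), crp79 (0.76), meu10 (0.58) and mug20 (0.35). The reverse was met by urg2 (−1.05), npr3 (−0.70), rrn7 (−0.56), pro2 (−0.54) and cut7 (−0.51). Opposite signs here are relative to the median of each array, and limma called none of these differences on all 4 arrays without the running median, the smallest adjusted p being 0.254. Without mmi1-ts3 replicate 2 it called crs1 (adjusted p = 0.0321) and mug9 (adjusted p = 0.0374).

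One table line that the annotation gives to several genes, and which entered no comparison, had ratios of 2.37 and 2.44 in mmi1-ts3, against −0.01 and 0.60 in wild type. Its difference was 2.11, with a gap of 1.77, as large as those of the highest genes; no gene is named from it.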

How the results depend on the processing

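In all settings the medians of Mmi1 targets (0.76 to 1.59) and linear elements (0.88 to 1.56) stayed above 0. Those of ribosomal proteins of the large (−0.47 to −0.17) and small subunit (−0.45 to −0.19), glucan and wall genes (−0.42 to −0.16), purine and pyrimidine genes (−0.41 to −0.11) and amino acid synthesis genes (−0.18 to −0.062) stayed below 0. The cause of the shifts was not tested.

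With the running median, limma called 3 genes higher and 0 lower, with 14 higher and 4 lower at 2-fold, a small-subunit median of −0.23 and a purine median of −0.16. Adding the array set as a replicate block (both chosen together after seeing the data) gave 10 higher and 2 lower, the same 14 and 4, and the same medians; the block alone called 0 genes. At 3-fold 5 genes were higher and 1 lower. Keeping genes with at least 1 value per strain gave 5 lower at 2-fold. Quantile normalization gave −0.17 and −0.19 for large- and small-subunit proteins and −0.11 for purines, no centring −0.25 for the small subunit, −0.22 for purines and −0.062 for amino acids, and equal scaling of the arrays −0.19 for purines. Read as natural logs, 21 genes were 2-fold higher and 7 lower, and the medians were 1.56 for linear elements, −0.47 and −0.45 for the large and small subunit and −0.41 for purines.

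Each array was also left out in turn, so that fewer arrays had to lie apart. Counts at 2-fold were then 25 to 44 higher and 11 to 41 lower. By limma 0 to 2 were called higher and 0 lower (58 to 119 and 41 to 118 at an unadjusted p under 0.05); the 2, without mmi1-ts3 replicate 2, were mug9 (adjusted p = 0.0374) and crs1 (adjusted p = 0.0321). The medians ran from −0.41 to −0.22 (large subunit), −0.41 to −0.20 (small) and −0.28 to −0.17 (purines).

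Signs turned for mmi1 and btn1 under the running median, with and without the block (−0.061 and −0.0498), and for the gene btn1 with equal scaling (−0.00323). Leaving out single arrays turned the signs of mug4 (−0.10 to 0.30), mug5 (−0.84 to 0.57), rem1 (−0.12 to 0.56), mcp7 (−0.91 to 2.32), mmi1 (−0.56 to 0.69), red1 (−0.0015 to 0.0885), red5 (−0.13 to 0.46), nrl1 (−0.19 to 0.35), pcf11 (−0.53 to 0.022) and btn1 (−1.31 to 1.45). Those that turned only without wild-type replicate 2 were utp14 (−3.22 to 1.70), pnk1 (−4.47 to 1.13), meu34 (−4.47 to 1.61), alg13 (−4.54 to 0.75) and rbk1 (−2.38 to 1.83).

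The spread of 2 arrays per strain and the drift along the table limit these comparisons.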

Other observations

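Among the 254 table lines with no gene, 242 had all 4 values, with a median difference of 0.06, against −0.07 over the genes tested. Of these 242 lines, 38 were higher and 16 lower in mmi1-ts3 without overlap, against 9.31% and 20.4% of the genes tested. Higher lines were thus the more numerous here, and lower ones among the genes. In either direction 0 lines reached 2-fold on both arrays. Of the 109 genes that missed a value, 108 had at least 1 in each strain, and among these 1 lay at least 2-fold higher and 3 lower on every array present.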
